A study of Mus musculus with 2 samples.

Results

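CD8 T cells are the lymphocytes that read peptides on MHC class I and kill cells that display foreign ones. In single-cell RNA sequencing of lung cells from bleomycin-injured Pclaf WT and Pclaf KO mice, they were taken as the cells with at least 1 UMI (unique molecular identifier, 1 captured transcript) of Cd3e, Cd3d or Cd3g and at least 1 UMI of Cd8a or Cd8b1. Cells with any UMI of Cd4, Cd79a, C1qa, Cdh5 or Epcam, or with 3 or more of the cycling genes Mki67, Top2a, Birc5, Cenpf and Ube2c, were left out. The rule found 511 of 45824 kept cells, 484 of 30187 in Pclaf WT and 27 of 15637 in Pclaf KO. Because these measured genes chose the members, their levels are given as a description only.

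Each library came from lungs of mice aged 8 to 10 weeks, 1 week after bleomycin was instilled. The dose stands at 1.35 U/kg in the deposited design text, and other passages of the study name other doses. One genotype carried Pclaf intact and in the other it was knocked out, with no further detail of the allele in the labels. Whether the lungs of several animals were pooled is not given in the sources used here. The labels call the samples epithelial cells, gated as Cd31-, Cd45- and Epcam+, yet 95.9% of the WT members and 85.2% of the KO members had a UMI of Ptprc, the gene of CD45. The members thus lie outside the stated gate, and fewer T cells in a lung cannot be told apart from a sort that left out more of them. Each genotype is 1 library, so genotypes have no replicates and were not tested against each other. Values are given for both libraries with exact 95% intervals, Poisson for summed UMIs and Clopper-Pearson for shares of cells, which cover counting error only.

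A CD8 T cell recognises its target through an alpha-beta T cell receptor held by the CD3 chains, and the CD8 coreceptor, a CD8 alpha-alpha or alpha-beta dimer, binds the MHC class I molecule beside it. Naive CD8 T cells circulate through lymphoid organs with homing receptors such as CCR7 and are kept in that state by factors such as LEF1 and TCF7. After activation they switch to chemokines, granzymes and perforin, and some settle in tissues such as the lung as resident memory cells that express CD103 (Itgae), CD69 and CXCR6.

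The promoters of Cd8a, which helped to choose the cells, and of Nkg7, a granule membrane gene that separated these cells from CD4 T cells, are shown from RefSeq on GRCm38.p6, 250 bases before to 50 after the start of each gene. Cd8a lies on the plus strand and its window is chr6:71373177-71373476. Nkg7 lies on the plus strand and its window is chr7:43436888-43437187. Capitals mark the letters TGTGGT, the core bound by RUNX factors, read on either strand. The search also covered CTTTGA, the core of the TCF/LEF site, which neither window held on either strand.
Cd8a: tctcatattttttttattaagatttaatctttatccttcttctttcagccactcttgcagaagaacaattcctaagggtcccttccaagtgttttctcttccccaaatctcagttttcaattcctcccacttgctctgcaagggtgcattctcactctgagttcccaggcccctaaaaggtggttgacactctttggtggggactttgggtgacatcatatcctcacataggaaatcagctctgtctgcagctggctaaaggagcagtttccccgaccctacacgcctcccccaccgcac
Nkg7: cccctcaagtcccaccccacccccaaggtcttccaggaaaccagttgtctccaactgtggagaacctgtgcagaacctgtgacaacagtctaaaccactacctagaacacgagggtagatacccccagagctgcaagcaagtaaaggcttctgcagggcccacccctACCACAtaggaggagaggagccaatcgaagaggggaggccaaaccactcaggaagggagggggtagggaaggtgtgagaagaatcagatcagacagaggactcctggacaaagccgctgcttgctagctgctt
The Nkg7 window held TGTGGT 1 time and the Cd8a window 0 times. Of 32851 promoter windows of this length, 5506 (16.8%) held TGTGGT and 5257 held CTTTGA. A match is a description of the letters, not evidence of binding.

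Pclaf, the gene that was knocked out, encodes a PCNA-binding protein of cycling cells and was close to absent from these non-cycling cells in both libraries. Pclaf (ENSMUSG00000040204, chr9:65890237-65903266 on the plus strand) had 9 UMIs in 6 of the 484 WT members, or 1.24% of cells (0.456 to 2.68). WT B cells and endothelial cells, which serve as a background, had a Pclaf UMI in 1.55% and 1.72% of cells. The 27 KO members had 0 Pclaf UMIs, which allows a share of up to 12.8% of cells, so Pclaf does not tell the libraries apart in these cells. Pclaf UMIs were found elsewhere in the KO library, in 1.59% of its endothelial cells, and whether those reads fall outside the altered part of the gene was not tested. Genotypes are therefore given as labelled.

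The WT library held CD8 T cells at 1.60% of kept cells (1.46 to 1.75) and the KO library at 0.173% (0.114 to 0.251). Cells with a Ptprc UMI were also fewer in KO, 11954 in WT and 516 in KO, and no background share was taken off these counts. Per 100 cells with a Ptprc UMI, CD8 T cells numbered 4.05 (3.70 to 4.42) in WT and 5.23 (3.48 to 7.52) in KO, and these intervals overlap. Among cells chosen as CD8 or CD4 T cells, CD8 T cells made up 64.5% (61.0 to 68.0) in WT and 64.3% (48.0 to 78.4) in KO. The CD4 rule mirrored the CD8 rule and found 266 WT and 15 KO cells. The WT members carried 1642300 UMIs and the KO members 117294, with medians of 2790 and 3733 UMIs and of 1260 and 1315 genes per cell. Both libraries name 16000 loaded cells in their labels, while the WT matrix holds 30669 barcodes and the KO matrix 17172. The libraries shared 163 barcodes, among them 4 of the WT members and none of the KO members.

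Each step of the rule removed cells in different numbers. In WT, 3093 kept cells had a Cd3 UMI, 873 of them also a Cd8 UMI, 494 of those none of the 5 barred genes, and 484 passed the limit on cycling genes. In KO the numbers were 147, 30, 28 and 27. Cells just inside the rule were frequent, since 54 WT and 2 KO members had exactly 1 Cd3 UMI and 176 WT and 8 KO members exactly 1 Cd8 UMI. On the cycling limit, 3 WT members had 2 of the 5 genes and 10 WT cells were left out, 1 with 3 of them, 3 with 4 and 6 with all 5. In the KO library 1 cell was left out, with all 5. A further 1741 WT and 100 KO cells had a Cd3 UMI but none of Cd4, Cd8a or Cd8b1, so the members are the T cells in which the coreceptor was captured, not all CD8 T cells. No cell that met the gene rule was lost to the limits on genes or mitochondrial UMIs.

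The members' other receptor genes are those of the cells the label names. At least 1 UMI of Trac, Trbc1 or Trbc2, the constant regions of the alpha-beta receptor, was present in 93.4% of WT members (90.8 to 95.4) and in 26 of 27 KO members. Trbc2 (ENSMUSG00000076498) was seen in 79.8% of WT members, at 658 CPM (counts per 1000000 summed UMIs), against 1.47% of WT B cells (Cd79a with Ms4a1) and 0.395% of WT endothelial cells (Cdh5 without Ptprc), none with a Cd3 UMI. Those background cells were shallower, with medians of 1962.5 and 1965 UMIs. Cd247, the CD3 zeta chain, was seen in 68.0% of WT members, Lck, the kinase that rides on CD8, in 46.5%, and the adaptor Skap1 in 94.4%. B cells stayed at 2.87% or less for each of these 3 genes. Trdc, the constant region of the gamma-delta receptor, was seen in 7 WT members (1.45%) and 1 KO member. Of the defining natural killer genes, Ncr1 had 8 UMIs and Klrb1c 11 UMIs over all WT members, and both were at 0 in KO.

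The coreceptor was captured unevenly. Of the WT members, 193 (39.9%) had both Cd8a and Cd8b1, 210 (43.4%) had Cd8b1 alone and 81 (16.7%) had Cd8a alone. In KO the numbers were 10, 15 and 2. Cd8b1 encodes the beta chain of the alpha-beta dimer that conventional CD8 T cells carry. Cells without a Cd8b1 UMI cannot be read as alpha-alpha cells at this depth, since they had a median of 2607 UMIs and Cd8b1 had 1 UMI in many of the others. The WT members with Cd8a alone had naive genes only (Ccr7 or Lef1 without Ccl5, Cxcr6 and Gzmk) in 55.6% of cells, against 62.8% of those with Cd8b1. Some other genes differed between them beyond counting error, markers of other cells included. Trdc and Tcrg-C2, constant genes of gamma delta T cell receptors, had 8 and 6 UMIs in the Cd8a-alone cells and as many in the others, a log2 ratio of 2.52 for both (0.91 to 4.13 and 0.62 to 4.42). Klra7, an NK receptor with 8 and 1 UMIs, was at 5.52 (2.62 to 10.99), and the macrophage genes Marco (22 and 9 UMIs) and Chil3 (97 and 218 UMIs) at 3.81 (2.63 to 5.11) and 1.35 (0.99 to 1.70). In the Cd8a-alone cells the UMIs of Marco lay in 3 cells, of Klra7 in 4, of Trdc in 3 and of Tcrg-C2 in 5, so their intervals rest on few cells. Chil3 was found in 13.6% of the Cd8a-alone cells and 14.9% of the others. The part of cells of other kinds in the values that follow was not tested. Il2rb, a subunit of the interleukin-2 and interleukin-15 receptors, stood at 222 CPM in the Cd8a-alone cells and 119 CPM in the others, a log2 ratio of 0.90 (0.43 to 1.35). Ikzf2, the transcription factor Helios, stood at 193 and 62.9 CPM, a log2 ratio of 1.62 (1.07 to 2.14). Il7r went the other way, at 464 and 626 CPM, a log2 ratio of -0.43 (-0.73 to -0.15).

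Variable segments of the receptor were read rarely, as the libraries capture the 3′ end. A Trbv segment was found in 39 WT members (8.06%) and 5 KO members. In WT 16 of the 35 annotated Trbv genes were seen. Trbv15 led with 6 members and 8 UMIs, followed by Trbv29 with 5 members and 6 UMIs, and by Trbv3, Trbv12-1 and Trbv13-3 with 3 members each. The 5 KO members carried 5 different Trbv genes. Only 1 WT member had more than 1 Trbv. No Trbv segment was thus held by a large part of the cells in which one was read. A Trav segment was found in 26 WT members (5.37%) and 3 KO members. In WT 17 of the 128 annotated Trav genes were seen, the most frequent in 4 members, and 2 of the 3 KO members held the same Trav gene. Expansion of single clones cannot be assessed from segments this sparse.

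Genes of naive and central memory T cells led the members' T cell programs. Lef1 (ENSMUSG00000027985, chr3:131110471-131224356 on the plus strand), which encodes a factor that keeps T cells naive, had 1864 UMIs in WT, or 1135 CPM, and 77 UMIs in KO, or 656 CPM. It was found in 82.4% of WT members (78.7 to 85.7) and in 21 of 27 KO members, against 6.36% of WT B cells and 0.607% of WT endothelial cells. Tcf7, its partner factor, was found in 58.1% of WT members and 1.01% of B cells, and 244 WT members (50.4%) and 14 KO members held UMIs of both. Il7r, the receptor of the survival cytokine interleukin-7, was found in 66.5% of WT and 81.5% of KO members, against 1.55% of WT B cells. Ccr7 was found in 39.0% of WT members, but also in 37.8% of B cells, which use the same homing receptor. Dapl1, a gene of naive CD8 T cells, was found in 30.2% of WT members and 0.233% of B cells.

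Granule and chemokine genes were carried by fewer cells, and in very unequal amounts. Ccl5 (ENSMUSG00000035042, chr11:83525778-83530518 on the minus strand), a chemokine that memory T cells store as transcript, had 3396 UMIs in 148 WT members (30.6%, 26.5 to 34.9), against 1.86% of B cells. A cell with Ccl5 held a median of 13 UMIs and the highest cell 151. In KO 333 UMIs lay in 5 cells and 166 of them in 1. Nkg7 (ENSMUSG00000004612, chr7:43437073-43438249 on the plus strand) was more widespread, with 745 UMIs in 59.3% of WT members and 45 UMIs in 14 of 27 KO members, against 0.698% of WT B cells. Its window printed above was set from the RefSeq start, which differs from the start given here. Gzma, a serine protease of the granules, was found in 9.50% of WT members with 563 UMIs, and its 24 KO UMIs lay in 1 cell. Gzmb and Gzmk were each found in 5.58% of WT members and Prf1, the pore-forming protein, in 10.95%. At least 1 of Gzma, Gzmb, Gzmk and Prf1 was found in 94 WT members (19.4%) and 3 KO members. Transcripts of the effector cytokines were scarce, with 8 UMIs of Ifng in 8 WT members and 3 in 3 KO members, and 10 UMIs of Tnf in 7 WT members and 0 in KO.

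Of the 12 residency genes, 2 or more were found in 47.3% of WT members, with no background share taken off. Runx3, a factor that also acts outside residency, was found in 40.7%. Itgae was found in 17.8% of WT members against 0.620% of B cells, and Cxcr6 in 11.2% against 0.310%. Both together were found in 17 WT members (3.51%). Cd69 was found in 25.4% of WT members, but in 22.9% of B cells as well. Zfp683, the factor Hobit of resident cells, had 0 UMIs in both libraries. Among 10 genes of inhibitory receptors and exhaustion factors, 4 receptors were rare. One or more of Pdcd1, Lag3, Havcr2 and Tigit was found in 36 WT members (7.44%) and 2 KO members, and 2 or more of them in 4 WT members and in none of the KO members. Btla, an inhibitory receptor of resting lymphocytes, was more frequent, in 93 WT members (19.2%), with Entpd1 in 47 and Ctla4 in 33. No B cell share is given beside these receptor counts, so they include any background. Tox, a factor of thymic development and of exhaustion, was found in 48.8% of WT members, with 60.5% of CD4 T cells beside them.

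**Figure D1:**
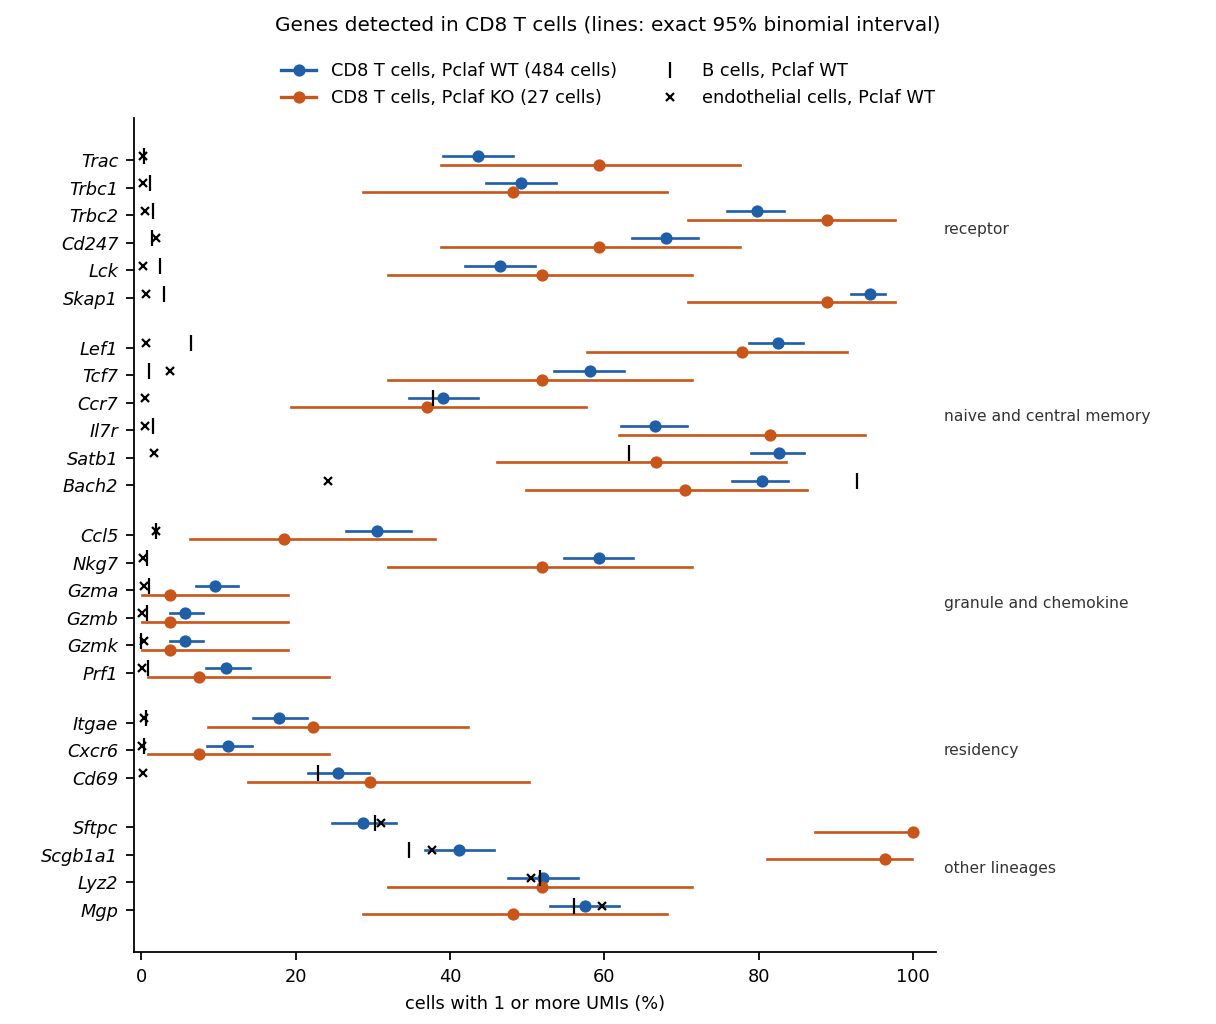
Share of CD8 T cells with 1 or more UMIs of each gene (horizontal axis, percent) in Pclaf WT (blue, 484 cells) and Pclaf KO (orange, 27 cells), with exact 95% binomial intervals as lines, and the share in WT B cells (bars) and WT endothelial cells (crosses). Receptor genes, Lef1, Tcf7, Il7r, Ccl5 and Nkg7 sit far to the right of both backgrounds, while Ccr7 and Cd69 sit close to the B cell value and the 4 genes of other lineages at the bottom sit close to both backgrounds in WT.

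The members were then divided by 2 naive genes (Ccr7, Lef1) and 3 effector memory genes (Ccl5, Cxcr6, Gzmk), each at 1 or more UMIs. In WT 298 members (61.6%, 57.1 to 65.9) had naive genes only, 60 (12.4%, 9.59 to 15.7) effector memory genes only, 112 (23.1%, 19.5 to 27.2) both and 14 (2.89%) neither. In KO the numbers were 18 (66.7%, 46.0 to 83.5), 3 (11.1%, 2.35 to 29.2), 4 (14.8%) and 2 (7.41%). At full depth the intervals of the 2 libraries overlap in each of the 4 classes. These classes depend on depth, since the WT cells with both had a median of 3458.5 UMIs and those with effector memory genes only 2242. With every cell thinned to 1000 UMIs, which left out 2 WT members, the naive-only share was 53.9% in WT and 44.4% in KO, and the share with both 10.4% and 0%. The share with neither was then 19.3% (15.9 to 23.1) in WT and 44.4% (25.5 to 64.7) in KO, and at 500 UMIs 36.6% (32.3 to 41.0) and 66.7% (46.0 to 83.5), and the intervals of this class do not overlap. Only total UMIs were matched, and the KO cells of this class still had fewer genes at 1000 UMIs, a median of 480.5 against 587. Each genotype is 1 library, so the intervals cover counting error only.

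**Figure D2:**
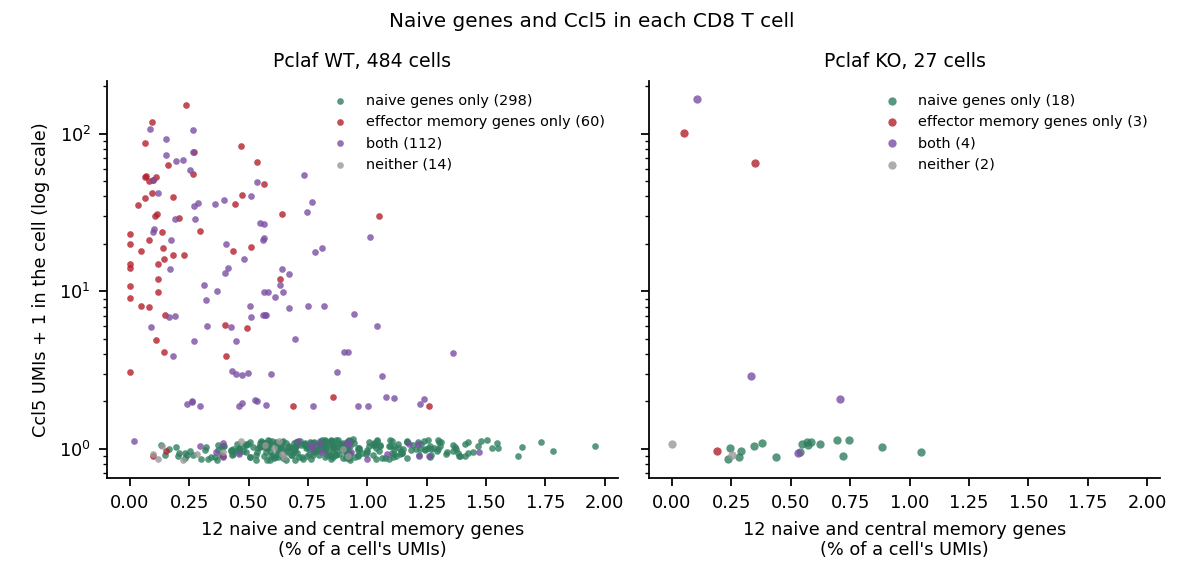
Each point is 1 CD8 T cell, with the percent of its UMIs that come from 12 naive and central memory genes (horizontal axis) and its Ccl5 UMIs plus 1 (vertical axis, log scale, with a small vertical jitter), coloured by class. In WT (left) the 298 naive-only cells lie along the bottom at 0 Ccl5 UMIs, and the cells with the most Ccl5, up to 151 UMIs, lie at the left, low in naive genes. KO (right) has 27 cells, 3 of them with over 60 Ccl5 UMIs.

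Genes that had no part in the division also differed between the 60 effector memory and the 298 naive-only cells in WT. These classes were made from the same cells, so the values are a description. Of 3466 genes with 50 or more UMIs over both sums, 208 (6.0%) were 2-fold or more higher and 289 (8.34%) 2-fold or more lower in the effector memory cells, with a median log2 ratio of 0.02. Of 13 measured memory and activation genes, 9 were 2-fold or more higher and none lower, with a median of 1.63. Of 10 measured naive genes outside the division, 8 were 2-fold or more lower and none higher, with a median of -1.42. The 3 measured granule genes, Gzma, Nkg7 and Ctsw, were all higher. Since Gzma reached the UMI minimum only through the effector memory cells, this count is partly set by which genes were measured. Gzma had 330 UMIs in the effector memory cells and 0 in the naive-only cells, at least 677-fold higher against a floor of 3 UMIs. Nkg7 stood at 1456 and 229 CPM, a log2 ratio of 2.67 (2.39 to 2.94), yet was still found in 43.96% of the naive-only cells, against 14.3% of WT CD4 T cells. Klrd1, the CD94 receptor chain, did not differ beyond counting error, at 243 and 171 CPM (0.50, -0.05 to 1.02), and was found in 37.2% of the naive-only cells.

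Rgs1, a regulator of chemokine receptor signalling in tissue T cells, was among the 10 highest genes in the effector memory cells at 236 and 23.9 CPM (3.31, 2.52 to 4.12). Ahnak, Lgals1, S100a6 and S100a4 were higher too, at log2 ratios of 2.17, 2.22, 1.68 and 1.63. The factors Id2 and Zeb2, which accompany effector differentiation, were at log2 ratios of 2.30 and 2.38. On the naive side, Satb1, a chromatin organiser of T cells, stood at 287 CPM in the effector memory cells and 1136 CPM in the naive-only cells (-1.98, -2.45 to -1.55). Bach2, a repressor of effector genes, stood at 351 and 1065 CPM (-1.60, -2.02 to -1.21), and Il7r at 179 and 690.3 CPM (-1.95, -2.55 to -1.40). Rapgef4, Rflnb, Gm14085, Fam241a, Ntrk3 and Kcnip4 were among the 10 lowest with Satb1.

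Both ends of that ranking also held transcripts of other cells. Ager and Rtkn2, genes of alveolar type I cells, were among the highest, and 74 of the 127 Ager UMIs and 48 of the 57 Rtkn2 UMIs of all WT members lay in 1 cell each. Ndnf, Tmem163, Nckap5, Hip1 and Chst11 were high beside them, and how their UMIs were spread over cells was not examined. Lyz2, a lysozyme of macrophages, and Acta2, an actin of smooth muscle, were among the lowest, with 353 of 2499 and 69 of 127 UMIs of all WT members in 1 cell each. Lyz2 turned from -2.09 to 0.28 without members holding 2 genes of another lineage list.

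CD4 T cells of the same library were the closest comparison, and most genes differed little. Of 6134 genes with 50 or more UMIs, 2.53% were 2-fold or more higher and 2.33% 2-fold or more lower in WT CD8 T cells, with a median log2 ratio of -0.07. Granule genes stood out from this background, with 5 of 7 measured genes 2-fold or more higher, none lower and a median of 1.32. Gzmb, with 47 CD8 and 6 CD4 UMIs, reached the UMI minimum mostly through the CD8 T cells. The count of higher granule genes is thus partly set by which genes were measured. Nkg7 stood at 454 CPM in CD8 and 118 CPM in CD4 T cells (1.95, 1.63 to 2.27), and in KO the UMIs were 45 and 2. Gzma (1.34, 1.04 to 1.65), Prf1 (1.31, 0.41 to 2.34) and Ctsw (1.32, 0.83 to 1.84) were also higher in WT. Of 5 measured cytokine and chemokine genes, 2 were higher and 1 lower, with a median of -0.08. Ccl5, of that list, stood at 2068 and 528 CPM (1.97, 1.82 to 2.12), and in KO the UMIs were 333 and 0.

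Of 5 measured genes of inhibitory receptors and exhaustion factors, 2 were 2-fold or more lower in WT CD8 T cells and none higher, with a median of -0.80. The lists of factors, memory and residency held genes that went either way. Of 14 measured transcription factors 2 were higher and 3 lower (median -0.11), of 16 memory and activation genes 1 and 1 (median -0.43) and of 10 residency genes 2 and 1 (median -0.45). Among the higher genes, chosen after their values were seen, Runx3, the factor that sets the CD8 fate, stood at 211 and 58.2 CPM (1.86, 1.41 to 2.34), and its KO UMIs were 11 and 2. Eomes, a factor of cytotoxic cells, had 54 UMIs in 39 WT CD8 T cells and 0 in CD4 T cells, at least 8.66-fold higher against a floor of 3 UMIs, and 3 and 0 UMIs in KO. Ly6c2 (2.21, 1.79 to 2.65), Klrd1 (1.97, 1.49 to 2.48), Itgae (1.91, 1.18 to 2.73) and Ccr9, a gut-homing chemokine receptor (2.39, 1.35 to 3.64), were also higher in WT CD8 T cells. Of the 7 measured NK receptor genes, 3 were 2-fold or more higher and none lower, with a median of 0.48. That median turned to -0.58 with 200 or more UMIs per gene. It was 1.89 with limits on UMIs instead of genes and 2.05 with 2 UMIs each of Cd3 and Cd8. Among the 10 highest genes, Gm44174 (337 and 0 UMIs) and Bend4 (114 and 1 UMIs), stood at 10 and 0 UMIs each in KO. The others of the 10 were Eomes, Acta2, of which 69 of 127 UMIs lay in 1 cell, Ebf1, and the antibody genes Ighg2b, Igkc, Jchain, Iglv1 and Iglc2, with 1733 of the 1839 Igkc UMIs in 1 cell.

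The naive program was shared by both kinds of T cell, with 1 of 12 measured genes 2-fold or more higher in WT CD8 T cells, none lower and a median of 0.04. Lef1 stood at 1135 CPM in CD8 and 1016 CPM in CD4 T cells, and Il7r at 602 and 611 CPM. Genes of helper and regulatory T cells were lower in CD8 T cells, with 4 of 4 measured genes 2-fold or more lower and a median of -2.35. Cd40lg, the ligand by which helper cells license others, had 7 UMIs in CD8 and 95 in CD4 T cells (-4.82, -6.17 to -3.72), and 1 and 5 UMIs in KO. It reached the UMI minimum only through the CD4 T cells, so the count of lower genes is partly set by which genes were measured. Ctla4 stood at 38.4 and 189 CPM (-2.30, -2.75 to -1.86), and its KO UMIs were 2 and 22. Ikzf2 stood at 82.2 and 503 CPM (-2.61, -2.90 to -2.33) with 8 and 30 UMIs in KO. Icos (-1.66, -1.96 to -1.37) and Il2ra (-2.41, -3.23 to -1.63) followed.

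Other genes among the 10 lowest against CD4 T cells were Il1rl1, the interleukin-33 receptor, with 1 and 61 UMIs, St8sia6, Gpnmb, Maf, A630023P12Rik, Tmem64 and Trat1. Rora (-1.78, -2.06 to -1.50), Gata3 (-1.43, -1.85 to -1.01), Rgs1 (-1.90, -2.27 to -1.54) and S100a4 (-1.495, -1.66 to -1.33) were also lower in WT CD8 T cells. In KO only 319 genes reached 50 UMIs over both sums, 9.40% of them 2-fold or more higher and 6.90% 2-fold or more lower in CD8 T cells. The share of higher genes was 2.86% without the cells with over 5% of UMIs of other lineages, and 3.30% with limits on UMIs instead of genes. S100a4 was lower in KO too, at 247 and 1334 CPM (-2.43, -3.11 to -1.78). Its KO CD8 T cell UMIs lay in few cells, 16 in 1 cell and 13 in 2 others.

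Against NK cells, chosen by Ncr1 or Klrb1c without Cd3 UMIs (481 in WT, 16 in KO), CD8 T cells had the naive program and NK cells the granules. Of 6760 genes in WT, 5.24% were 2-fold or more higher and 9.35% 2-fold or more lower in CD8 T cells, with a median log2 ratio of -0.17. Of 12 measured naive genes, 9 were higher and none lower, with a median of 2.88. Of 16 measured receptor signalling genes, 8 were higher and none lower, with a median of 1.15. All 8 measured granule genes and all 11 measured NK receptor genes were 2-fold or more lower, with medians of -3.53 and -3.26. Of 15 measured memory and activation genes, 9 were lower and none higher, with a median of -1.40. NK receptor genes include Ncr1 and Klrb1c, which chose the NK cells, so the lower values of these genes were favoured by that choice. Some listed genes reached the UMI minimum only through the NK cells, such as Ncr1 (8 and 656 UMIs) and Gzmb (47 and 486 UMIs). The counts of lower granule and NK receptor genes are thus partly set by which genes were measured.

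Gzma showed the size of the gap, at 343 CPM in CD8 T cells and 6542 CPM in NK cells of WT (-4.25, -4.38 to -4.13) and at 205 and 4841 CPM in KO. Ccl5 stood at 2068 and 10046 CPM in WT (-2.28, -2.34 to -2.22) and at 2839 and 6458 CPM in KO. Nkg7 stood at 454 and 1818 CPM in WT (-2.00, -2.13 to -1.88). Ighg2b, an antibody gene, ranked first among the highest genes in CD8 T cells, with 865 and 0 UMIs in WT and none in KO, and the antibody genes Igkc and Jchain were also among the 10. Themis, a T cell receptor signalling protein, ranked second with 1345 and 6 UMIs in WT and 49 and 0 in KO. Fam169b (556 and 3 UMIs), Sntb1 (559 and 8 UMIs) and Dapl1 (302 and 1 UMIs) were high in WT and had 19 and 1, 20 and 0, and 38 and 0 UMIs in KO. Nsg2, Gm14085 and Gm44174 completed the 10.

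Most of the 10 lowest genes were NK receptors. Klra8 and Klra4, MHC class I receptors of the Ly49 family, had 7 and 959, and 15 and 1046 UMIs in WT, and 0 and 16, and 0 and 46 in KO. The receptors Klra9 and Klri2 were low beside them, with Styk1, the signalling adaptor Clnk, the chymase Cma1 (2 and 195 UMIs) and the protease inhibitor Serpinb9b (0 and 91 UMIs). The others of the 10 were Ncr1 and Klrb1c, by which the NK cells were chosen. Trbc1 was found in 29.3% of WT NK cells, so a receptor constant region alone would not have separated the 2 kinds of cell. In KO 337 genes were measured, of which 33.8% were 2-fold or more higher and 7.12% 2-fold or more lower in CD8 T cells, with a median of 0.47. Scgb1a1, a secretory gene of airway club cells, made up 232047 of each 1000000 UMIs in those 16 NK cells and 16992 in the CD8 T cells. The part of this in the KO ratios was not tested.

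**Figure D3:**
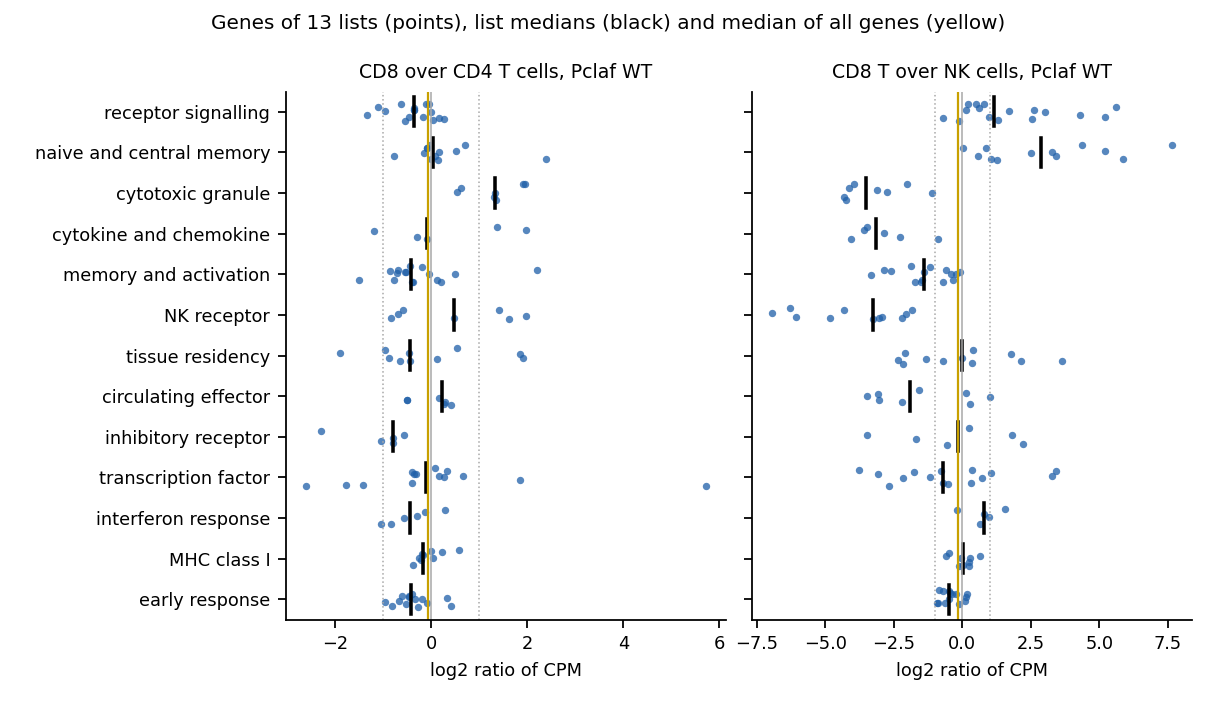
Log2 ratio of CPM in Pclaf WT, CD8 over CD4 T cells (left) and CD8 T over NK cells (right), for the genes of 13 lists with 50 or more UMIs over both sums (points), each list's median (black) and the median of all genes (yellow), with dotted lines at 2-fold. Granule genes lie to the right in the first panel (median 1.32) and to the left in the second (median -3.53), and Eomes at the far right of the first panel has 0 CD4 UMIs, so its position rests on the 0.5 added to both sums.

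Between the genotypes the comparison rests on 27 KO cells. Of 4943 genes with 50 or more UMIs over both sums, 3.30% were 2-fold or more higher and 25.0% 2-fold or more lower in KO, with a median log2 ratio of -0.44. The ratios are therefore read against -0.44, not against 0. With the median set to 0, the shares were 8.56% and 14.6%. With genes at 0 in KO placed at a floor of 3 UMIs, 22.6% were lower. Ribosomal protein genes took 25.0% of UMIs in WT members and 30.7% in KO members.

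The highest genes in KO were epithelial. Sftpc, surfactant protein C of alveolar type II cells, had 838 UMIs in WT members, or 510 CPM, and 2368 in KO members, or 20189 CPM, a log2 ratio of 5.31 (5.19 to 5.42). Scgb1a1 had 396 and 1993 UMIs, or 241 and 16992 CPM (6.14, 5.98 to 6.30). Of the measured alveolar type II genes, 8 of 8 were 2-fold or more higher, with a median of 4.46. Genes with few WT UMIs could reach the UMI minimum through the KO members, where they were high. This count may thus be partly set by which genes were measured. The list of alveolar type I and airway genes, which holds Scgb1a1, did not move as one. Of its 5 measured genes 2 were 2-fold or more higher and 1 lower, or 0 lower at the floor of 3 UMIs, with a median of -0.01. Scgb3a2, Sftpa1, Chil1, Cxcl15, Cbr2, Wfdc2, Lcn2 and Sftpd completed the 10 highest.

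These epithelial UMIs had 2 forms. A few cells held most of them, since the 5 highest cells carried 95.5% of the KO Sftpc UMIs and 94.5% of the KO Scgb1a1 UMIs. For Sftpc 2 of these held 1522 and 705 UMIs, and no other KO member over 17. For Scgb1a1 2 other cells held 1097 and 750 UMIs, and no other KO member over 13. The rest was spread thinly, with a median of 5 Sftpc UMIs in a KO member and all 27 KO members holding at least 1. In WT 28.7% of members held Sftpc. Cells that should lack the gene had similar shares, with 30.3% of WT and 97.8% of KO B cells and 31.0% of WT and 99.8% of KO endothelial cells. Over all kept cells Sftpc stood at 6092 CPM in the WT library and 86730 in the KO library. Epcam was at 0 in all members by the rule. Without the cells that had over 5% of their UMIs from 7 lists of other lineages (4 of 484 in WT, 4 of 27 in KO), the Sftpc ratio was 2.53 (2.22 to 2.82), at 259 and 1493 CPM, and the Scgb1a1 ratio 2.61. Sftpa1 was then at 2.09 (1.06 to 3.01), but Sftpb had 2 KO and 42 WT UMIs (-0.08, -3.17 to 1.86), Sftpd 1 and 13 and Slc34a2 0 and 21, so the rise of these 3 alveolar type II genes was no longer detectable. Cxcl15, of the same list, stayed at 3.07 (1.91 to 4.14), with 11 and 26 UMIs. Only Sftpc and Sftpa1 then had 50 or more UMIs, and the list's median of 2.31 is over these 2.

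**Figure D4:**
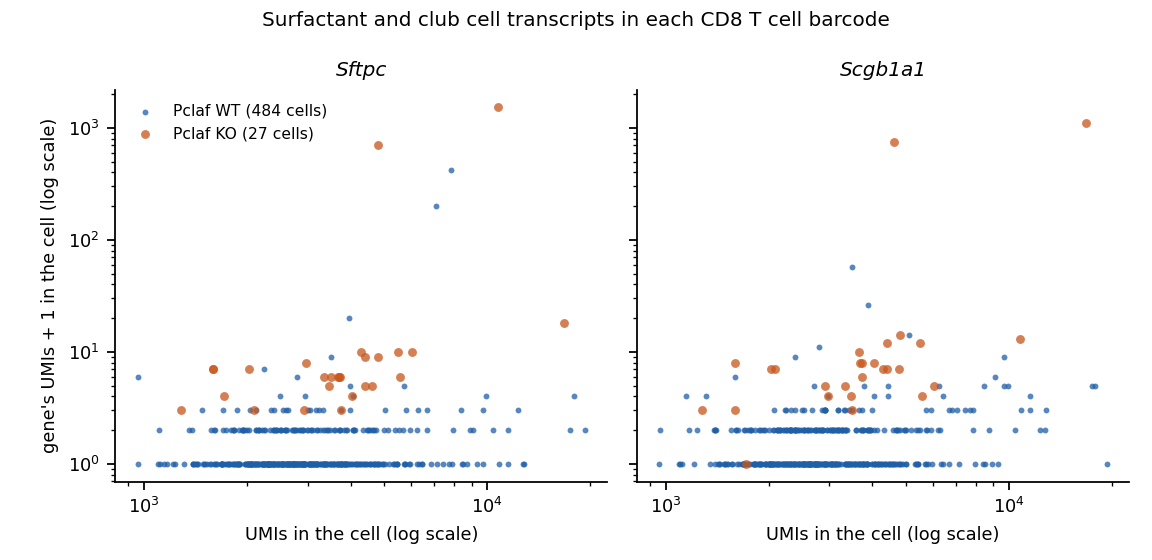
Each point is 1 CD8 T cell, with its total UMIs (horizontal axis, log scale) and its UMIs plus 1 of Sftpc (left) or Scgb1a1 (right) on the vertical log axis. KO cells (orange) have a median of 5 Sftpc and 6 Scgb1a1 UMIs and mostly lie above the WT cells (blue), and the highest KO cells, at 1522 and 1097 UMIs, stand far from the rest.

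Transcripts of macrophages went the other way. Of 8 measured macrophage and monocyte genes, 7 were 2-fold or more lower in KO and 1, Lyz2, was higher, with a median of -2.93. At the floor 4 of the 8 were lower, with a median of -1.68. Listed genes at 0 in KO, such as Chil3, reached the UMI minimum only through the WT members. The count of lower macrophage and monocyte genes is thus partly set by which genes were measured. The Lyz2 value rests on few cells, since 303 of its 438 KO UMIs lay in 1, and without the cells with over 5% of UMIs of other lineages it turned to -2.33 (-2.99 to -1.74), at 286 CPM in KO and 1436 in WT. Chil3, a chitinase-like protein of alveolar macrophages, had 315 UMIs in 71 WT members and 0 in KO, at least 7.50-fold lower. Fcer1g and Tyrobp, adaptors of myeloid and NK cells, had 358 and 405 UMIs in WT, against 0 and 1 in KO, at least 8.52-fold lower for Fcer1g. Their share of WT members, 19.4% and 20.04%, was close to that of WT B cells, 17.7% and 22.3%. The 51 WT members with both had a median of 5126 UMIs, beside 2790 for all WT members, and the source of these UMIs was not tested. The 3 measured B cell genes, some of which reached the UMI minimum only through the WT members, were lower too, with a median of -3.94, or -1.35 at the floor. Of these, Igkc had 1733 of its 1839 WT UMIs in 1 cell, and Ighm was at -1.04 (-2.11 to -0.14), or -0.45 (-1.52 to 0.45) without the cells with over 5% of UMIs of other lineages. Igkc, Ighg2b, Jchain, Spp1, Ccl6, Cybb and Kcnip4 completed the 10 lowest. Fibroblast genes were higher in KO for 6 of 8 and lower for 1, and most of these values too rest on few cells. All 74 KO UMIs of Dcn lay in 1 cell. Without the cells with over 5% of UMIs of other lineages Mgp, a matrix protein, turned to -0.92 (-1.38 to -0.48), Dcn had 0 UMIs in KO and 54 in WT, and the collagen genes Col3a1 and Col1a2 were at -0.51 (-2.16 to 0.74) and 0.23 (-1.25 to 1.40), while Pdgfra, with 9 KO and 39 WT UMIs, stayed at 2.20 (0.97 to 3.27). At least 2 genes of any 1 of 6 other-lineage lists were found in 59.3% of WT and 77.8% of KO members.

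The lists of T cell genes lay closer to the median of all genes than the alveolar type II and macrophage lists. Of 10 markers of CD8 T cells outside the rule, none passed 2-fold, and their median was -0.16, above the median of all genes. Trbc2 stood at 658 CPM in WT members and 733 in KO members (0.16, -0.18 to 0.47), Trac at 206 and 196 CPM, and B2m, the light chain of MHC class I, at 1658 and 1466 (-0.18, -0.41 to 0.05). The counts that follow stand beside 25.0% of all genes 2-fold or more lower in KO and 3.30% higher. No list in this paragraph had a lower share above that 25.0%, but lists given further below did, such as memory and activation with 7 of 15 genes. Of 16 receptor signalling genes, 2 were 2-fold or more lower and none higher, with a median of -0.35. Of 12 naive genes, 1 was lower and none higher, with a median of -0.36. Of 5 measured granule genes, 1 was lower and none higher, with a median of -0.56. That median was -1.88 without members holding 2 genes of another lineage list, and -0.03 without the cells with over 5% of UMIs of other lineages.

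Single T cell genes lay further out. In CPM, Satb1 stood at 973 in WT members and 375 in KO members (-1.38, -1.84 to -0.94). Lef1 (-0.79, -1.14 to -0.46) and Foxp1 (-0.87, -1.19 to -0.55), which share the naive list with it, were below the median of all genes, though the interval of Lef1 reaches close to it. Dapl1, of the same list, was higher in KO at 184 and 324 CPM (0.82, 0.29 to 1.31), so the list did not move as one. Ptprc stood at 1463 and 716 CPM (-1.03, -1.36 to -0.72), Skap1 at 1388 and 801 CPM (-0.79, -1.11 to -0.49). Klf2, a factor of quiescent T cells, was above the median of all genes (0.15, -0.24 to 0.51), while the interval of Il7r (-0.08, -0.46 to 0.28) reaches it. Without the cells with over 5% of UMIs from other lineages, Satb1 was at -1.04 (-1.53 to -0.58) and Dapl1 at 1.30 (0.77 to 1.80). Lef1 was then at -0.71 (-1.12 to -0.33), Foxp1 at -0.71 (-1.08 to -0.36) and Ptprc at -0.75 (-1.11 to -0.41). Skap1 was at -0.58 (-0.93 to -0.25). The intervals of Lef1, Foxp1, Ptprc and Skap1 then reach the median of all genes, which was taken over all members. The interval of Satb1 stays below it.

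Of 15 measured memory and activation genes, 7 were 2-fold or more lower in KO and none higher, with a median of -0.80, beside 25.0% lower and a median of -0.44 among all genes. Itga4, an integrin chain of cell adhesion, stood at 473 CPM in WT members and 136 in KO members (-1.79, -2.61 to -1.09), and at -1.57 (-2.49 to -0.79) without the cells of mixed lineage. Cd44 had 262 and 4 UMIs (-2.23, -4.11 to -0.85), Itgb1 382 and 10 UMIs (-1.45, -2.52 to -0.55) and Cxcr4 151 and 2 UMIs (-2.43, -5.49 to -0.55). Without the cells of mixed lineage Itgb1 was at -2.23 (-4.11 to -0.86), from 4 KO UMIs. Cd44 (-1.65, -3.54 to -0.28) and Cxcr4 (-1.92, -4.97 to -0.04) then had intervals that reach -0.44. That median of all genes is over all members, and none is given here without these cells. Cd44 was found in 21.5% of WT members and 23.02% of WT B cells. Of the 6 measured NK receptor genes 4 were lower, Fcer1g and Tyrobp among them, with a median of -2.48, or -1.19 at the floor. Klrc1 had 83 WT UMIs in 43 cells and 0 in KO, at least 1.98-fold lower, so at the floor 3 of the 6 pass 2-fold. Of 13 measured transcription factors 5 were lower (median -0.60), of 10 residency genes 4 (median -0.79) and of 4 inhibitory receptor genes 2 (median -0.96), with none higher in these 3 lists. At the floor 4 of the 13 factors and 3 of the 10 residency genes were lower, the latter with a median of -0.75. Both Cxcr6 and Itgae were found in 1 KO member.

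Early response genes, which cell dissociation is known to induce, had 2 of 14 higher and 2 lower in KO. Among all genes 3.30% were higher and 25.0% lower. The list's median was 0.01, above the -0.44 of all genes. The 2 higher genes were heat shock genes. Hspa1a stood at 62.1 CPM in WT members and 196 in KO members (1.66, 0.94 to 2.32), in 11.8% and 48.1% of cells. Hspa1b stood at 122 and 273 CPM (1.16, 0.58 to 1.71). Among B cells Hspa1a was found in 10.4% in WT and 26.1% in KO. Zfp36 was lower at 141 and 42.6 CPM (-1.72, -3.36 to -0.48), while Fos and Jun were at 0.14 and 0.03. Without the cells with over 5% of UMIs of other lineages, Jun, with 5 KO and 200 WT UMIs, was at -1.01 (-2.65 to 0.24) and Fos at 0.09. Zfp36 was then at -3.47 from 1 KO UMI, Hspa1a at 1.55 (0.66 to 2.34) and Hspa1b at 0.99 (0.23 to 1.67), just under 2-fold.

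**Figure D5:**
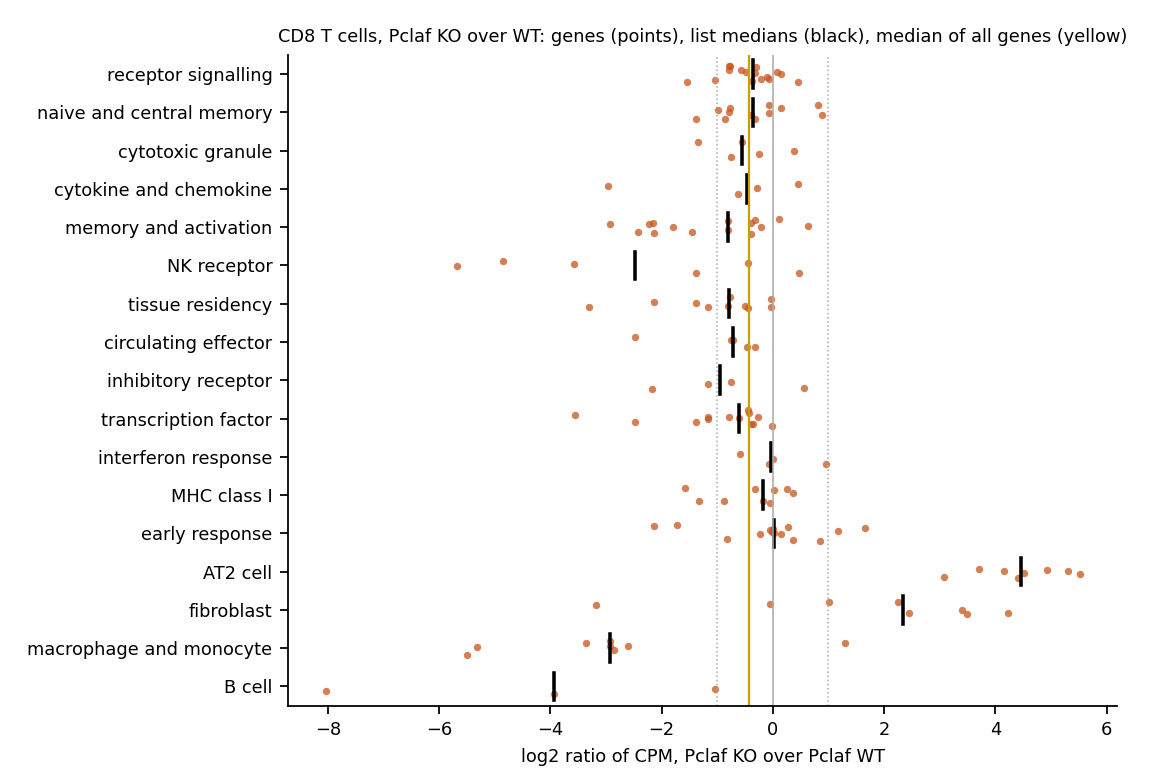
Log2 ratio of CPM, Pclaf KO over Pclaf WT, in CD8 T cells for the genes of 17 lists with 50 or more UMIs over both sums (points), each list's median (black) and the median of all genes (yellow, -0.44), with dotted lines at 2-fold. The T cell lists straddle the yellow line, alveolar type II and fibroblast genes lie to the right (medians 4.46 and 2.35) and macrophage and B cell genes to the left, and genes at 0 in KO are placed with 0.5 added to both sums. Without the cells with over 5% of UMIs of other lineages, which are in the plot, the alveolar type II median was 2.31 over 2 genes, and the fibroblast genes Mgp and Col3a1 were at -0.92 and -0.51.

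The sex of the animals was checked because the study's methods name male mice. Xist, expressed from the inactive X chromosome of females, was found in 128 WT members (26.4%) and 12 KO members. A UMI of any of 4 Y-linked genes was found in 195 WT members (40.3%) and 7 KO members. Both were found in 22 WT members (4.55%) and 2 KO members, and Xist without a Y gene in 106 WT members. Both libraries thus held transcripts of both sexes, and how many animals each came from is not given in the sources used here.

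The most abundant transcripts in WT were of the kind found in any cell. Gm42418, a sequence that overlaps ribosomal RNA, led both libraries at 50521 and 52364 CPM. Tmsb4x, Rps24, mt-Atp6, Malat1, Rplp1, Rps29, mt-Co1, mt-Co2 and mt-Co3 completed the 10 highest in WT. In KO Sftpc and Scgb1a1, of alveolar type II and club cells, ranked next, followed by Rps24, Tmsb4x, Tpt1, Malat1, mt-Atp6, Rplp1 and Rpl13.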

How the data were processed

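Each library's deposited matrix holds whole-number UMI counts, which the authors did not normalize. Their notes name STAR and Cell Ranger 3.1.0 on GRCm38, and the file headers name Cell Ranger 5.0.0. Cells with more than 200 and fewer than 5000 genes and under 20% mitochondrial UMIs were kept. The study's methods give these limits, but their upper limit may refer to UMIs, a reading tried as an alternative. No doublet caller was run. Genes barred by the rule stand in for it, with 1 added alternative that drops cells with over 5% of UMIs of other lineages. UMIs were summed over members per library and given as CPM. Counts, medians and rankings of genes used those with 50 or more UMIs over both sums, and single ratios from fewer UMIs are given with their UMIs, with 0.5 added to both sums where 1 was 0. Bounds for a count of 0 use a floor of 3 UMIs per sum. Named genes are those of the lists and the 10 highest and 10 lowest per comparison by the interval bound nearest 0, without rule and mitochondrial genes, the 10 genes highest in CPM and 5 Trbv genes. Of the listed genes, 3 are not reported here, and the lists, the naive and effector memory classes and the B cell rule were computed without them, which departs from the design as first written. The members and lists were chosen with earlier results of these data known. Alternatives changed the limits, the rule, the UMI minimum and the scaling (TMM of edgeR 4.0.16 in R 4.3.3). Python 3.11.15 with numpy 2.4.6, scipy 1.17.1 and pandas 2.3.3 was used, and the calculations were tested on simulated data.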

Additional observations from a re-analysis of the deposited data

Results flagged for a closer look

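Among the T cell program lists and the 20 genes ranked highest and lowest in WT, the intervals of the ratio of CD8 over CD4 T cells lay on opposite sides of 0 in the 2 libraries for 2 genes, and the difference was not tested, since each genotype has 1 library. Gzmb, granzyme B, had a log2 ratio of 1.91 in WT, from 47 UMIs in 27 CD8 T cells and 6 UMIs in 4 CD4 T cells. In KO it was -4.52, from 1 UMI in CD8 T cells and 10 UMIs in 2 of 15 CD4 T cells, 8 of them in 1 cell. Ptprc had a log2 ratio of 0.16 in WT, at 1463 and 1308 CPM, and of -1.08 in KO, at 716 and 1510 CPM, from 84 UMIs in 23 of 27 CD8 T cells and 77 UMIs in 15 of 15 CD4 T cells. Outside these lists, Sftpc went from -1.08 in WT to 3.72 in KO and Lyz2 from -0.66 to 1.10, and other genes were not screened. The KO CD8 T cells carried Sftpc at 20189 CPM and the KO CD4 T cells at 1530 CPM, and the part of this in the Ptprc ratio was not tested. Without the cells with over 5% of UMIs of other lineages, KO CD8 T cells stood at 1493 CPM for Sftpc and 286 CPM for Lyz2. That limit kept all 15 KO CD4 T cells, where Lyz2 stood at 1746 CPM, so neither gene was then higher in KO CD8 T cells.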

How the results depend on the processing

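No paired analysis was possible because each genotype has 1 library, so no library could be left out either. Each count of KO cells is small, and 0 of 27 allows up to 12.8% of cells. The cause of the changes below was not tested unless the setting itself sets the number of cells or genes.

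CD8 T cells made up 1.80% of WT kept cells with a mitochondrial limit of 10%, 2.01% with 500 or more genes, 0.908% with 2 UMIs each of Cd3 and Cd8 and 1.34% with Cd8b1 required. With limits on UMIs instead of genes the shares were 1.76% in WT and 0.346% in KO, and without members holding 2 genes of another lineage 0.653% and 0.0384%.

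With limits on UMIs, the alveolar type II median between genotypes was 5.38, the granule and NK receptor medians against CD4 T cells 2.09 and 1.89, and the memory and NK receptor medians against NK cells -1.68 and -4.24. In KO 3.30% of genes were then higher against CD4 T cells, and 12.5% higher and 12.5% lower against NK cells.

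With 2 UMIs each of Cd3 and Cd8, 7.58% of genes were higher and 3.81% lower against WT CD4 T cells, the granule and NK receptor medians were 2.27 and 2.05, and 15.4% were higher against KO CD4 T cells. With cycling cells the memory median against WT CD4 T cells was -0.64.

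Without members holding 2 genes of another lineage, the granule median between genotypes was -1.88, 3.45% of genes were higher against KO CD4 T cells, the NK receptor median against WT NK cells was -4.32, 65.9% of genes were higher and 1.22% lower against KO NK cells, and Lyz2 reversed between effector memory and naive-only cells, to 0.28. Without members with over 5% of UMIs of other lineages, chosen after seeing the data, the alveolar type II median was 2.31, 2.86% were higher against KO CD4 T cells and 14.03% lower against KO NK cells.

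With 20 or more UMIs per gene, 6.14% were higher between genotypes, 5.14% higher and 3.88% lower against WT CD4 T cells, 13.2% lower against KO CD4 T cells, and the granule median against WT NK cells was -3.10. With 200 or more, 1.65% were higher between genotypes with an alveolar type II median of 5.31, and 1.52% higher against WT CD4 T cells with an NK receptor median of -0.58. Against KO CD4 T cells 5.56% were then higher and 0% lower, against WT NK cells the NK receptor median was -3.79, and against KO NK cells 60.0% were higher.

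Without mitochondrial and ribosomal protein genes the memory median against WT NK cells was -1.19, and with TMM -1.20, with 4.08% lower against KO CD4 T cells. Centred on the median of all genes, also chosen after seeing the data, 8.56% were higher and 14.6% lower between genotypes. Thinned to 1000 UMIs, the naive-only share was 53.9% of WT and 44.4% of KO members and the effector-memory-only share 16.4% of WT members. Thinned to 500, these shares were 39.7%, 18.5% and 18.8%.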
